A study of Mus musculus with 39 samples.

Results

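The proteasome and immunoproteasome genes were taken as all genes whose symbol starts with Psma, Psmb, Psmc, Psmd, Psme or Psmg followed by a digit. The array annotation held 50 such names, and 48 of them were measured by a probe set that names 1 gene, of 18194 genes measured in all. They comprised 4 immunoproteasome genes (Psmb8, Psmb9, Psmb10 and Psme1) and 44 others. Of the 44 others, 31 encode subunits of the 20S core or the 19S regulator, 7 are assembly chaperones, 2 are other activators, 2 are tissue-restricted subunits and 2 fit the rule by name only. Psme2, the partner of Psme1, and Psme2b share 1 probe set and were not analysed here. The members were chosen by name and not by measured values.

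RNA from 39 lymphomas of transgenic mice carrying Eµ-myc was hybridised to short-oligonucleotide arrays, 1 array per tumour. The transgene drives Myc from the immunoglobulin heavy chain enhancer, so it is active in B lineage cells. All 39 tumours shared this genotype and formed 1 group, with no normal tissue, treatment or age in the labels. The tissue was whole frozen tumour, so host cells are part of each sample, and in such tissue fewer cells of a type and less RNA per cell cannot be told apart. Nothing in the labels ties each tumour to its own animal, and the p-values therefore describe the spread among these arrays alone, which may be partly technical. Tumours are called by their number in the labels. Levels are log2 values, and levels of different probe sets were not set against each other.

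The 20S core of the proteasome is a barrel of stacked alpha and beta rings that holds the proteolytic sites inside, and the 19S regulator recognises ubiquitin chains, unfolds the substrate and feeds it into the barrel. In immune cells and after interferon gamma, the catalytic subunits Psmb6, Psmb7 and Psmb5 can be replaced during assembly by Psmb9, Psmb10 and Psmb8. The resulting immunoproteasome cuts proteins into peptides that are loaded onto MHC class I molecules, and lymphoid cells carry much of it without stimulation. Psme1 and Psme2 form PA28, a cap that interferon gamma also induces, while Psme3 and Psme4 form other caps, and the Psmg chaperones build the rings. Transcription of the constitutive genes is known to rise through Nfe2l1 when proteasome activity is impaired.

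The array medians lay between 5.61 and 5.78, so levels near or under these values carry little signal. A score over 11 of 12 listed pan B cell genes was low in tumours 5, 6, 8, 19, 23 and 26, which a mixture model set apart from the others, with scores down to -2.66 in tumour 6 against a median of 0.36. The labels call the tissue lymphoma without a lineage, and these 6 carried the B cell markers at lower levels than the others. Tumour 2 kept a pan B cell score of 0.06 but had the highest T and cytotoxic cell score of 3.37 against a median of -0.25. Its macrophage score of 1.68, shared by tumour 23, was the highest against a median of -0.24, and it had the lowest Myc level of 8.19 against a median of 11.92. Most results were also computed without tumour 2, without tumours 2, 6 and 8, and without the 7 tumours 2, 5, 6, 8, 19, 23 and 26. The fits with covariates and the fit on the Myc level kept all tumours.

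Psmb9, the inducible beta1i subunit, ranged from 9.91 in tumour 37 over a median of 10.54 to 12.63 in tumour 2. It reached 12.06, 12.01 and 11.79 in tumours 27, 18 and 1. The lowest and the highest tumour differed 6.56-fold. Its SD of 0.59 over 39 tumours was larger than that of 78.5% of all genes.

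Psmb8, the inducible beta5i subunit, had 11.35 in tumour 37, a median of 12.19 and 13.26 in tumour 2. Tumours 27, 1, 26 and 18 followed at 13.19, 12.99, 12.97 and 12.83, so the same few tumours were high for Psmb8 and Psmb9, and tumour 37 was lowest for both. Psmb10, the inducible beta2i subunit, ran from 10.47 in tumour 10 over a median of 11.01 to 12.22 in tumour 2, with the next tumour at 11.51. Psme1, the alpha subunit of PA28, varied least of the 4, from 11.58 in tumour 10 over a median of 12.15 to 12.75 in tumour 2. Every one of the 4 genes was thus highest in tumour 2. Their SDs were 0.41 for Psmb8, 0.30 for Psmb10 and 0.23 for Psme1.

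In the genome Psmb9 and Psmb8 lie within the MHC class II region on chromosome 17, in the order H2-DMb1, Psmb9, Tap1, Psmb8, Tap2, H2-Ob. Psmb9 and Tap1, which encodes a subunit of the peptide transporter into the endoplasmic reticulum, are transcribed away from each other from starts with 225 bases between them. The stretch is shown because it is upstream of both genes, which rose along the same score, as given further on. It is 5′ to 3′ on the minus strand, from RefSeq in the build GRCm38.p6, chr17:34187331-34187580, with the bases between both starts in capitals.
Psmb9: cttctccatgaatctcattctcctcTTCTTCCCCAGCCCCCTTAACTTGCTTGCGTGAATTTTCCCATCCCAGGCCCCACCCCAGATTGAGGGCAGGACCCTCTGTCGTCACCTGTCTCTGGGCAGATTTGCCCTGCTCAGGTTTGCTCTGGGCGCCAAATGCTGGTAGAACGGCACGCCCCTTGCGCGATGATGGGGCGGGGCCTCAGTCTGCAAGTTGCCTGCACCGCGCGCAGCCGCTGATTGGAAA

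Promoter windows of 300 bases, 250 before to 50 after the RefSeq start, were available for 40 of the 48 members and for 14453 measured genes. They were searched on both strands, each motif on its own, so that matches of different motifs may overlap. The motifs were chosen with earlier results known. The core of the interferon-stimulated response element was written as TTTC followed after any 2 bases by TTTC. It occurred in 5 of the 40 members (12.5%) and in 3.63% of all genes. The 5 were Psme1 from the immunoproteasome group, and Psmb3, Psmd4, Psmd9 and Psmg4 from the others. TTCNNNGAA, the core bound by STAT factors, occurred in 3 members (7.5%), Psmb8, Psmd2 and Psmg1, and in 8.57% of all genes. TGACNNNGC, a part of the element bound by Nfe2l1 and Nfe2l2, occurred in 6 members (15.0%) and in 16.1% of all genes. The 6 were Psmb5, Psmb6, Psmc6, Psmd9, Psmd12 and Psme4. CACGTG, the E-box that Myc binds, occurred in 5 members (12.5%) against 10.2% of all genes and 12.7% of genes above the median level. The 5 were Psmb10 from the immunoproteasome group, and Psma4, Psmd9, Psme3 and Psme3ip1 from the others. CCGGAAG, the core bound by ETS factors, occurred in 16 members (40.0%), none of the 4 immunoproteasome genes among them, and in 15.0% of all genes and 23.3% of genes above the median level. A match describes these letters only. The matches in Psme1 (chr14:55578493-55578522, plus strand), Psmb8 (chr17:34198088-34198116, plus strand), Psmb5 (chr14:54618024-54618052, minus strand) and Psmb6 (chr11:70525338-70525366, plus strand) are shown to set inducible beside constitutive genes, with the match in capitals, from the same RefSeq build.
Psme1: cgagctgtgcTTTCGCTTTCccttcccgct
Psmb8: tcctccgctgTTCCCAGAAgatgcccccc
Psmb5: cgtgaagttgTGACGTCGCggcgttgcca
Psmb6: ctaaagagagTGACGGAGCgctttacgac

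The constitutive catalytic subunits moved over narrower ranges and in other tumours. Psmb5, the chymotrypsin-like subunit that Psmb8 replaces, ran from 11.09 in tumour 1 over a median of 11.72 to 12.24 in tumour 25. Psmb6, the caspase-like subunit that Psmb9 replaces, had 10.93 in tumour 14, a median of 11.66 and 12.32 in tumour 21. Psmb7, the trypsin-like subunit that Psmb10 replaces, had 9.06 in tumour 2, a median of 10.05 and 10.43 in tumour 27. Tumour 2, highest for all 4 immunoproteasome genes, was therefore lowest for Psmb7, and it was the tumour with the lowest level for 21 of the 48 members.

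Within the 31 core and regulator genes the spread differed. The 3 members with the smallest SD were Psma3 (0.14), Psma1 (0.14) and Psmb1 (0.16), all subunits of the 20S rings. Among the 19S ATPases, Psmc4, which encodes Rpt3, had an SD of 0.47. It ran from 10.57 in tumour 30 over a median of 11.51 to 12.43 in tumour 36, with tumours 14, 38, 2 and 6 also at 10.72 or less. Psma7 was at 10.87 in tumour 35, while its next lowest tumour had 11.45, and its second probe set followed the first with r = 0.95. Psmd14, the deubiquitinase Rpn11, stood at 13.23 in tumour 18, with the next tumour at 12.74.

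Psmg1 to Psmg4, the assembly chaperones of the alpha ring, had SDs of 0.42, 0.46, 0.48 and 0.39. Psmg1 had 8.97 in tumour 2, a median of 10.95 and 11.37 in tumour 34. Psmg2, its partner, had 9.36 in tumour 2, a median of 11.10 and 11.57 in tumour 17. Psmg3 had 8.29 in tumour 2, a median of 10.05 and 10.96 in tumour 21, a 6.36-fold range. Tumours 2, 6 and 8 were among the 4 lowest for each of these 3 genes. Psmd7, the scaffold Rpn8 of the deubiquitinase, also lay lowest in tumour 2 at 9.44, with a median of 10.91 and a highest value of 11.41 in tumour 37.

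Psme4, which encodes the PA200 cap known from DNA repair and spermatogenesis, had the largest SD of all 48 members at 0.65. It lay at 9.12 in tumour 23, a median of 10.59 and 12.57 in tumour 13. Tumours 21 and 29 had 12.29 and 12.19, ahead of tumour 37 at 11.61 and of all others at 11.08 or less. Psme3, the nuclear PA28 gamma, had 7.87 in tumour 2, a median of 9.29 and 9.72 in tumour 30. Its 3 probe sets did not all move together (lowest r = -0.22), which also held for Psmc1, Psmd2, Psmd7, Psmd11 and Psmd13. In all of these but Psmd13, the deviating probe set had a mean of 4.21 or less, under every array median. Bright second probe sets also followed the first loosely in Psmb4 (mean 12.06, r = 0.45) and Psmd6 (11.23, 0.49). For Psmc4 they were at 10.81 and 0.64.

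Psma8, an alpha subunit of the testis, was at 7.47 in tumour 19 and at 4.33 or less in each of the 38 other tumours. Psmb11, the beta5t subunit of the thymic cortex, was at 5.11 in tumour 22 and at 4.12 or less elsewhere, under every array median. Psmc3ip, which encodes the meiotic recombination factor Hop2, and Psme3ip1 are not subunits. Psmc3ip ran from 6.51 in tumour 2 over a median of 8.57 to 9.63 in tumour 21, with tumours 6 and 8 at 6.81 and 7.05.

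**Figure D1:**
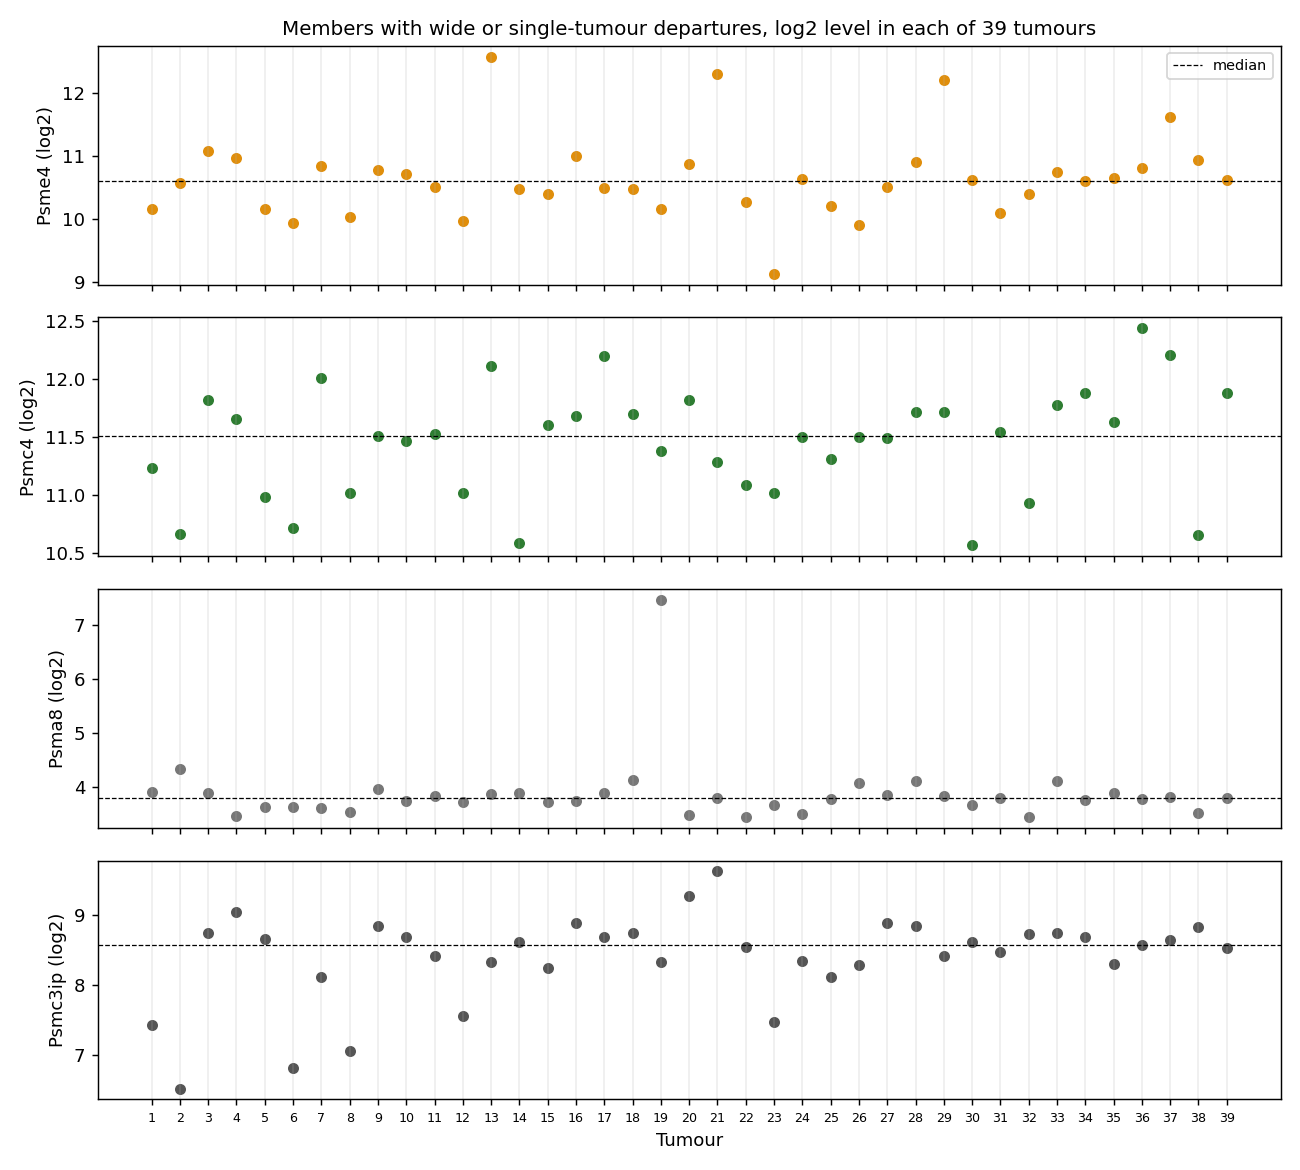
Log2 level of Psme4, Psmc4, Psma8 and Psmc3ip (vertical axes) in each of the 39 tumours (horizontal axis, by number), with 1 point per tumour and the median over tumours as a dashed line. Psme4 stood above 12 in tumours 13, 21 and 29, Psma8 reached 7.47 in tumour 19 only, and Psmc3ip was lowest in tumours 2, 6 and 8.

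The 4 immunoproteasome genes varied with each other. The mean Pearson r over their 6 pairs was 0.69 (lowest 0.55, highest 0.79) across the 39 tumours, against 0.44 over pairs of the 31 core and regulator genes, where single pairs lay between -0.18 and 0.91. Between both sets the mean was -0.25, and 112 of 124 pairs were below 0. These are descriptions, since all genes share the same 39 arrays and their tissue composition. Without tumour 2 the mean between both sets was -0.10, with 88 of 124 pairs below 0, and the means within the sets were 0.60 and 0.38. The 3 means without the 7 tumours were 0.60, 0.23 and -0.16. The median SD was 0.36 for the 4 genes, 0.26 for the 40 other subunit, chaperone and activator genes and 0.32 for all genes, or 0.40 for genes above the median level.

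**Figure D2:**
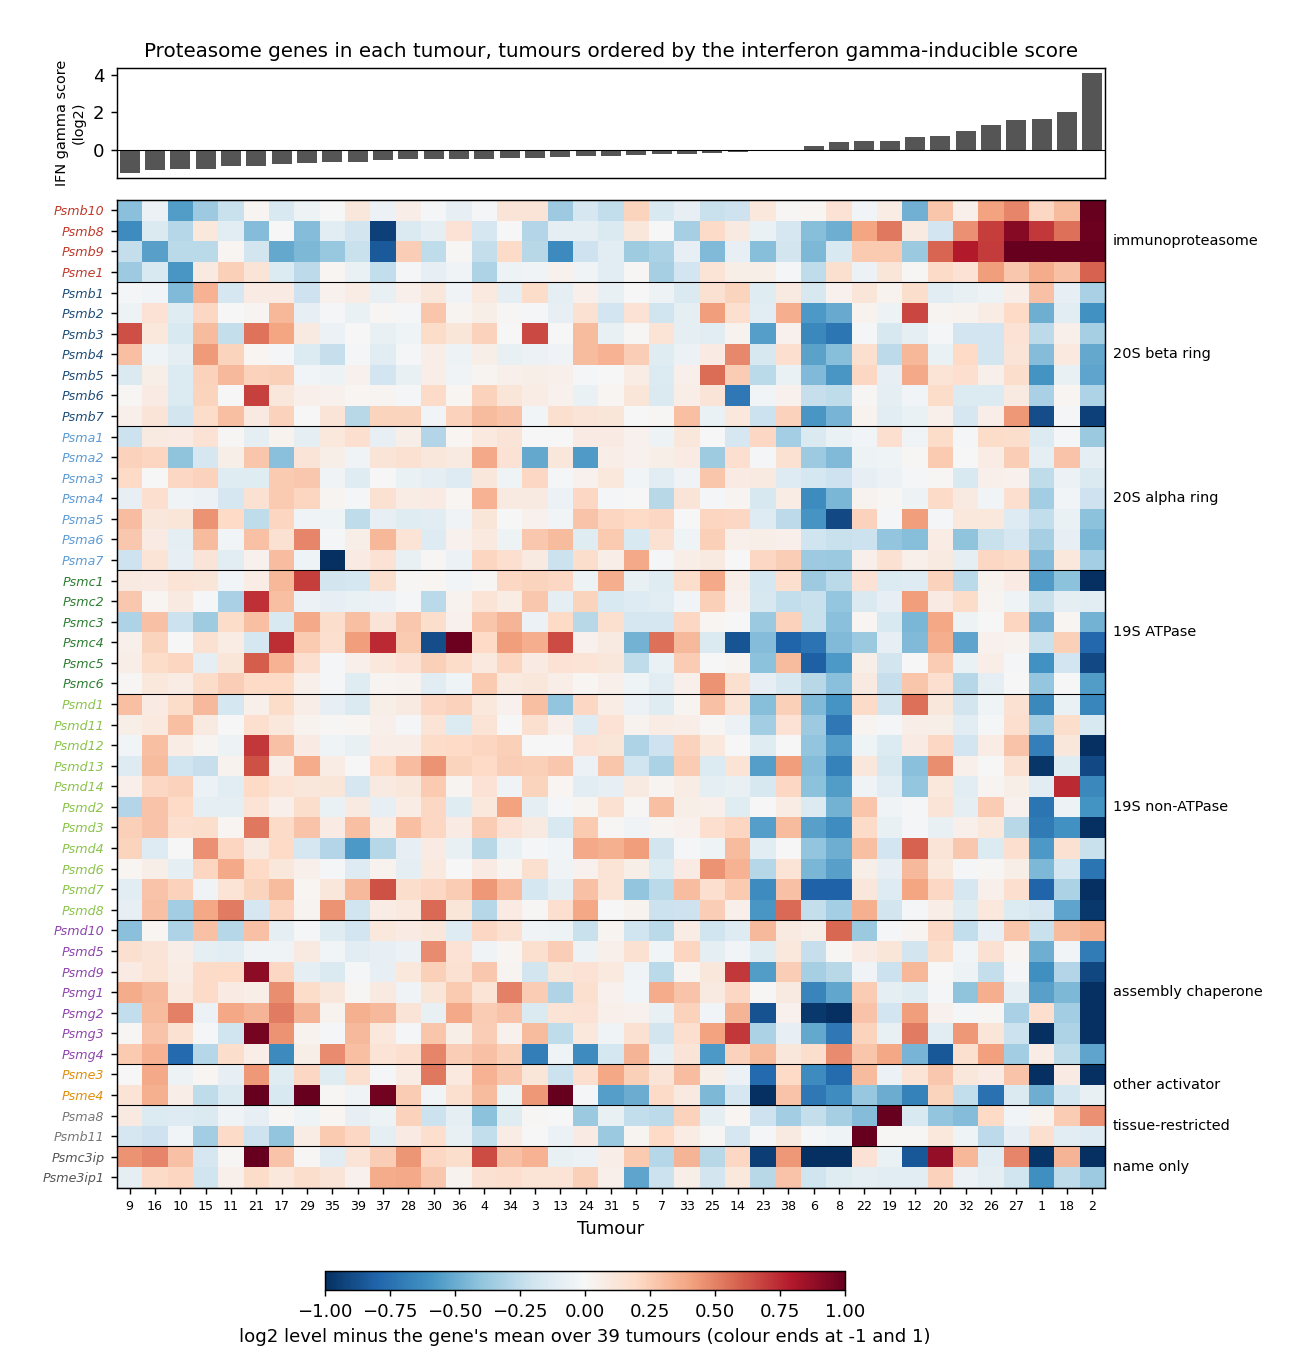
Log2 level of each of the 48 members minus its mean (colour, cut off at -1 and 1) in each tumour (columns), with genes in rows by class, immunoproteasome genes at the top, and tumours ordered by the interferon gamma-inducible score drawn as bars above. The immunoproteasome rows turn red towards the right, where tumours 26, 27, 1, 18 and 2 lie, while many rows of the 19S regulator and the chaperones are blue in tumours 6, 8, 1 and 2.

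Whether the members followed interferon gamma was asked with a score over 16 of 20 listed interferon gamma-inducible genes, guanylate-binding proteins and immunity-related GTPases among them, that holds no member. The score ran from -1.25 in tumour 9 over a median of -0.32 to 4.08 in tumour 2, with an SD of 1.04. Every gene was fitted on the score with limma. All 4 immunoproteasome genes rose along the score, and of the 44 others 0 rose and 23 fell. Over all genes tested 13.9% rose and 19.4% fell, and 31.9% fell among genes above the median level, where all members but Psma8 and Psmb11 lie. The median slope was 0.27 for the 4 genes, -0.11 for the 44 others and -0.02 for all genes, in log2 per SD of the score.

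Psmb9 rose by 0.50 ± 0.05 (SE) log2 per SD of the interferon gamma-inducible score (adjusted p = 7.57e-10). Psmb8 rose by 0.31 ± 0.04 (adjusted p = 1.27e-06), Psmb10 by 0.23 ± 0.03 (adjusted p = 6.10e-07) and Psme1 by 0.17 ± 0.03 (adjusted p = 7.92e-06). The order follows the width of their ranges given above. Among the members that fell, the ring chaperone Psmg1 had -0.32 ± 0.04, Psmc3ip -0.30 ± 0.09, Psmg3 -0.30 ± 0.06 and Psmg2 -0.28 ± 0.06. Of the core subunits 1 of 7 alpha ring genes (Psma6, -0.16) and 3 of 7 beta ring genes (Psmb3, Psmb6 and Psmb7) fell. Of the regulator 3 of 6 ATPases and 8 of 11 other subunits fell, and of the chaperones 5 of 7.

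The rise of the 4 genes was also seen without tumour 2. All 4 passed the test without it, with slopes of 0.41 for Psmb9, 0.27 for Psmb8, 0.14 for Psmb10 and 0.14 for Psme1, and all 4 passed without the 7 tumours. Fewer of the others passed then, since 7 of 44 fell without tumour 2 and 6 without the 7 tumours. Of all 18178 genes tested, 1623 rose and 1740 fell without tumour 2, and 1769 rose and 1735 fell without the 7 tumours. The share among genes above the median level was not computed at these settings. Markers of T and cytotoxic cells moved with the same score. All 16 measured genes of that list rose, with a median slope of 1.11 log2 per SD, and the T and cytotoxic cell score ran from -1.53 in tumour 10 to 3.37 in tumour 2. Ifng, itself a gene of the T and cytotoxic cell list, stood at 8.96 in tumour 2 and 6.23 in tumour 18, with a median of 3.31. Of the macrophage list 9 of 14 genes rose, and of the pan B cell list 0 rose and 1 fell of 11. With the pan B cell, macrophage and T and cytotoxic cell scores as covariates 0 genes of the whole array passed, and at that setting Psmb9 had 0.58 ± 0.16 and Psme1 0.31 ± 0.09, against 0.21 ± 0.11 for Psmb10 and 0.15 ± 0.15 for Psmb8. The adjusted p values of these 4 lay between 0.78 and 1.00, and 2 of the 4 genes and 4 of the 44 others, all 4 falling, had an unadjusted p under 0.05. Since the T and cytotoxic cell score holds Ifng, this covariate is not a measure of cell content alone. The part of these cells in the slopes cannot be told apart from that of the score.

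Along a score over 22 of 24 listed antiviral genes of the type I interferon response, all 4 immunoproteasome genes rose and 19 of the 44 others fell. Over all genes 10.7% rose and 12.2% fell, and 23.5% of the genes above the median level fell. Psmb9 rose by 0.36 ± 0.07 log2 per SD and Psmb10 by 0.19 ± 0.04. Both counts were 0 without tumour 2, which had the highest score of 2.52, and the slopes then were 0.23 for Psmb9, 0.13 for Psmb8, 0.10 for Psmb10 and 0.08 for Psme1. At an unadjusted p under 0.05, limma then had all 4 immunoproteasome genes rising and 8 of the 44 others falling. In the fit without the 7 tumours, tumour 2 among them, Psmb9 passed (0.27 ± 0.08, adjusted p = 0.042), while Psmb8 had 0.19 ± 0.06 (adjusted p = 0.052). Of the T and cytotoxic cell list 15 of 16 genes rose along this score, with a median slope of 0.76, and of the macrophage list 7 of 14 rose. With the composition scores as covariates 0 of the 4 genes passed, also at an unadjusted p under 0.05 (limma), with 0.10 for Psmb9 and -0.01 for Psmb8.

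**Figure D3:**
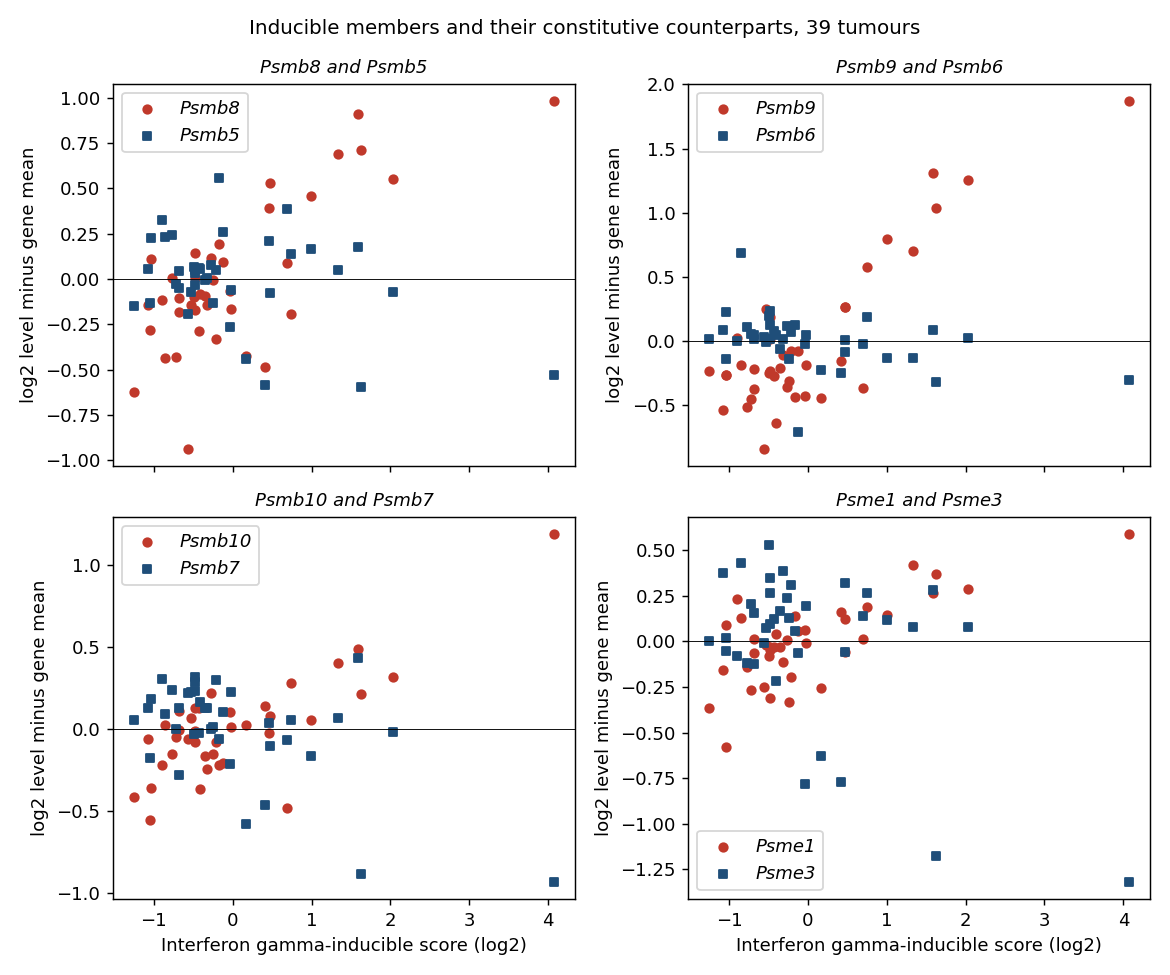
Log2 level minus the gene's mean (vertical axes) against the interferon gamma-inducible score (horizontal axes), 1 point per tumour. The panels hold Psmb8 with Psmb5, Psmb9 with Psmb6, Psmb10 with Psmb7 and Psme1 with Psme3, which belongs to another cap. Inducible genes are circles, and the other gene of each pair is drawn as squares. The circles climb towards the right in each panel, and tumour 2, at a score of 4.08, carries the highest circle.

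Differences of Psmb8, Psmb9 and Psmb10 from their constitutive counterparts, and of Psme1 from Psme3, were tested over the 39 tumours. Each gene was first centred on its mean. Psme3 belongs to another cap, so its pair with Psme1 is not a replacement. A total of 8 such relations were computed, with permutation tests of 100000 draws and adjusted p values over the 8. Psmb9 minus Psmb6 increased with the interferon gamma-inducible score (r = 0.87, rho = 0.67, adjusted permutation p = 1.6e-05 for r, which comes from the smallest p these draws can give). Without the 2 tumours farthest from the median of the score, 2 and 18, r was 0.78. Psmb8 minus Psmb5 gave r = 0.83 and rho = 0.65, Psmb10 minus Psmb7 r = 0.79 and rho = 0.58, and Psme1 minus Psme3 r = 0.68 and rho = 0.51, each with an adjusted permutation p of 6.7e-05 or less for r and 0.0011 or less for rho. Without tumours 2 and 18 their r were 0.74, 0.62 and 0.51, and all 3 still passed. With the 3 composition scores as covariates r was 0.47 for Psmb9 minus Psmb6 and still passed (adjusted permutation p = 0.007), while r of the other 3 did not, at 0.10, 0.32 and 0.34.

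The same differences decreased with the score of Myc targets described next. Here r was -0.89 for Psmb10 minus Psmb7, -0.85 for Psme1 minus Psme3, -0.69 for Psmb8 minus Psmb5 and -0.60 for Psmb9 minus Psmb6, and all passed, the last with an adjusted permutation p of 0.00048. Without tumours 2 and 8, the farthest from the median of this score, they were -0.76, -0.73, -0.59 and -0.40. The last of these kept an adjusted permutation p of 0.014 for r but not for rho (rho = -0.30, 0.075). With the composition scores as covariates r was -0.69 for Psmb10 minus Psmb7 and -0.65 for Psme1 minus Psme3, which passed, while Psmb8 minus Psmb5 and Psmb9 minus Psmb6, both at -0.13, did not (adjusted permutation p = 0.49 for each).

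Myc raises ribosome production and growth genes, and the transgene makes its output the common feature of these tumours. A score over 26 Myc target and ribosome biogenesis genes ran from -1.89 in tumour 2 over a median of 0.13 to 0.34 in tumour 9, with tumours 8, 6, 1 and 23 next to tumour 2 at -0.85, -0.68, -0.49 and -0.45. Of the 44 members outside the immunoproteasome group, 34 rose along it and 1 fell, and of the 4 immunoproteasome genes 0 rose and 4 fell. Over all genes 19.6% rose and 19.4% fell, and 36.4% of genes above the median level rose. The median slope was -0.19 for the 4 genes, 0.16 for the 44 others and 0.0023 for all genes.

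Psmc3ip (0.49 ± 0.07 log2 per SD of the Myc target score), Psmg2 (0.40 ± 0.04), Psmg3 (0.38 ± 0.05) and Psmg1 (0.37 ± 0.03, adjusted p = 4.74e-13) had the largest positive slopes. Psmd7 followed with 0.36 ± 0.03, Psme3 with 0.33 ± 0.04 and Psmd3, the scaffold Rpn3, with 0.30 ± 0.03. The rise ran through the core, the regulator and the chaperones, with 5 of 7 alpha ring genes, 6 of 7 beta ring genes, 5 of 6 ATPases, 10 of 11 other regulator subunits and 5 of 7 chaperones rising. Slopes of the alpha ring were small, with a median of 0.10, against 0.21 for the regulator subunits other than ATPases. Psmd10, which encodes the chaperone gankyrin, fell instead (-0.10 ± 0.03, adjusted p = 0.020), and Psmg4, the fourth ring chaperone, had 0.01 ± 0.06.

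Among the immunoproteasome genes Psmb9 fell by 0.32 ± 0.08 log2 per SD of the Myc target score, Psmb10 by 0.21 ± 0.04, Psmb8 by 0.16 ± 0.06 and Psme1 by 0.13 ± 0.03 (largest adjusted p = 0.028). Without tumour 2, 34 of the 44 others still rose and 2 of the 4 genes fell, Psmb10 and Psme1. Without the 7 tumours 15 of the 44 others rose and all 4 genes fell, with -0.35 for Psmb9 and -0.22 for Psmb8. Markers of other cells moved along this score too, with 14 of 16 T and cytotoxic cell genes falling (median slope -0.73), 10 of 14 macrophage genes falling (-0.53) and 5 of 11 pan B cell genes rising (0.30). With the composition scores as covariates 20 of the 44 rose and 1 of the 4 fell, Psmb10. With the Myc level of each tumour in place of the score, 31 of the 44 rose and 1 fell, and 4 of the 4 fell. Of all 18167 genes tested in that fit, 3383 rose and 3136 fell. Tumour 2 had the lowest Myc level, 8.19 against a median of 11.92, and the fit was not repeated without it. How far these counts rest on tumour 2 was therefore not tested.

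Both scores were opposite in tumour 2, so they were also fitted together. With the Myc target score in the model, all 4 immunoproteasome genes still rose along the interferon gamma-inducible score, Psmb9 by 0.62 ± 0.07, Psmb8 by 0.43 ± 0.06, Psmb10 by 0.17 ± 0.05 and Psme1 by 0.16 ± 0.04 (largest adjusted p = 0.022), and of the 44 others 1 fell, Psma6 (-0.16 ± 0.04). Of the 27 members called along the interferon gamma-inducible score alone, 13 turned sign in this model, Psmc3ip (0.16 ± 0.10) and Psmg2 (0.07 ± 0.06) among them, so the direction of those falls depends on the choice. With the interferon gamma-inducible score in the model, 30 of the 44 others still rose along the Myc target score and 0 fell. None of the 4 immunoproteasome genes fell then, and Psmb8 turned to a rise of 0.16 ± 0.06 (adjusted p = 0.044), so the direction of its slope along the Myc target score depends on this choice. The shares over all genes in these joint fits are not given here. Whether the counts are particular to the members therefore cannot be read from them.

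**Figure D4:**
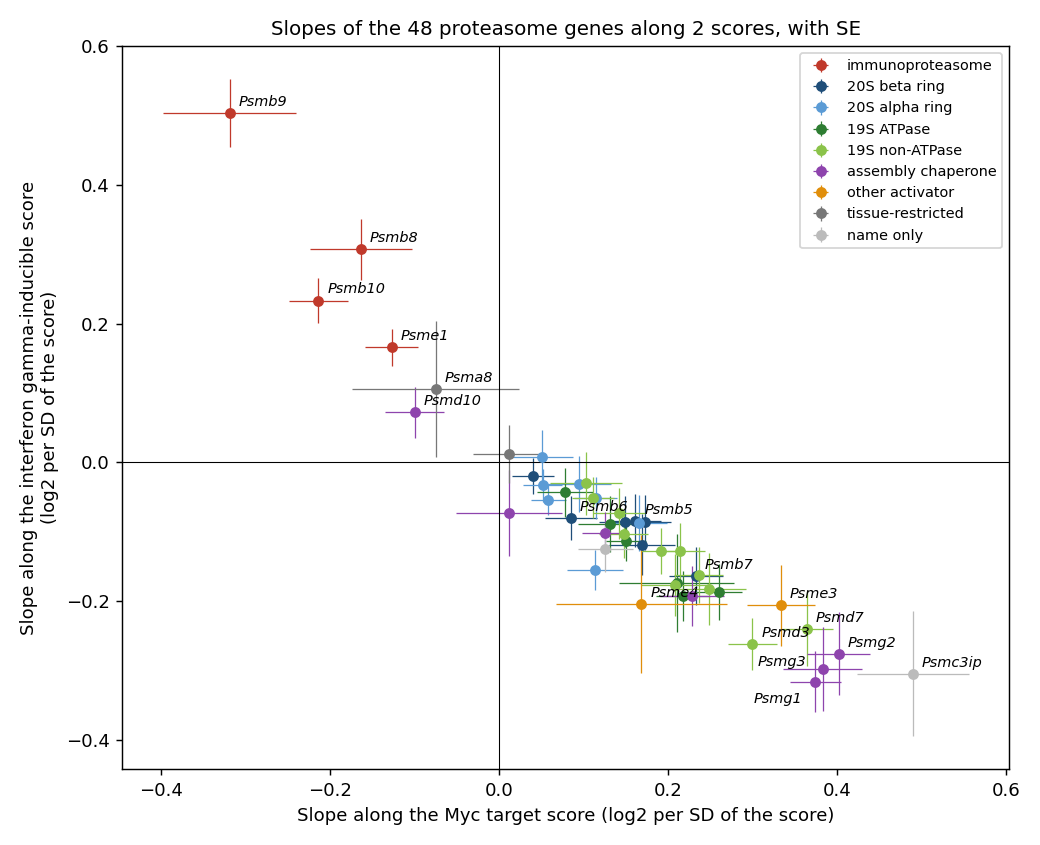
Slope of each of the 48 members along the interferon gamma-inducible score (vertical axis) and along the Myc target score (horizontal axis), both in log2 per SD of the score, with bars of 1 SE and colours by class. The 4 immunoproteasome genes lie at the upper left, from 0.17 to 0.50 on the vertical axis, and most other members lie at the lower right.

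Along a score over 21 of 22 listed G2/M genes of dividing cells, 34 of the 44 members outside the immunoproteasome group rose and 0 fell. Of the 4 immunoproteasome genes 0 rose and 3 fell. Over all genes 19.7% rose and 20.2% fell, and 37.5% of genes above the median level rose. Psmc3ip (0.55 ± 0.05), Psmg2 (0.38 ± 0.04), Psmd7 (0.36 ± 0.03) and Psmg3 (0.36 ± 0.05) had the largest slopes, nearly those of the Myc target score. A mixture model set tumours 1, 2, 6 and 8 apart on this score, at -1.03 or less. Without the 7 tumours, which include 3 of these, 18 of the 44 others rose and 2 of the 4 fell, and without tumour 2 the numbers were 36 and 0. Of the T and cytotoxic cell list 11 of 16 genes fell along the score, of the macrophage list 10 of 14 fell, and of the pan B cell list 5 of 11 rose. With the composition scores as covariates 23 of the 44 others rose and 0 of the 4 genes fell, also at an unadjusted p under 0.05 (limma), with -0.03 ± 0.09 for Psmb9. The shares over all genes given above do not cover these other settings, so the counts there have no background beside them.

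Nfe2l1, the factor that raises proteasome genes after proteasome inhibition, had 8.36 in tumour 11, a median of 8.76 and 9.84 in tumour 8. Its highest tumours were 8, 6, 23 and 2, and a mixture model set these 4 apart. Of the 44 other members 1 rose along the Nfe2l1 level, Psmd10 (0.09 ± 0.04), and 32 fell, and of the 4 immunoproteasome genes 1 rose, Psmb10 (0.12 ± 0.05, adjusted p = 0.030). Over all genes 20.6% rose and 17.3% fell, and 33.7% of genes above the median level fell. The largest falls were those of Psmc3ip (-0.41 ± 0.08), Psmg2 (-0.35 ± 0.05), Psmd7 (-0.30 ± 0.05) and Psme3 (-0.26 ± 0.05), and all 11 regulator subunits other than ATPases fell. Along the same level 10 of 14 macrophage genes rose (median slope 0.57) and 7 of 11 pan B cell genes fell (-0.43). With the composition scores as covariates 2 of the 44 others fell, 12 at an unadjusted p under 0.05, and neither Psmb10 nor Psmd10 passed. The share of all genes that fell with these covariates is not given here. Without the 7 tumours, which hold those 4, 0 members passed in either direction and 3 genes of the whole array did (limma), while 5 members, 1 rising and 4 falling, had an unadjusted p under 0.05. At an RNA level, these fits say nothing of the cleavage that activates the Nfe2l1 protein.

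A list of proteasome companions, which holds the inhibitor, ubiquitin receptors, deubiquitinases, shuttle proteins and regulators outside the naming rule, had 21 measured genes of 30 listed. Along the Myc target score 9 rose and 4 fell, with a median slope of 0.06. Over all genes 19.6% rose and 19.4% fell along it, and 36.4% of genes above the median level rose. The deubiquitinase Uchl5, bound to the regulator, rose by 0.42 ± 0.04, the shuttle Ubqln4 by 0.32 ± 0.04 and the scaffold Ecpas by 0.27 ± 0.06. The stress factors Nfe2l2 and Nfe2l1 fell by 0.32 ± 0.05 and 0.24 ± 0.04, and Zfand5 by 0.20 ± 0.05. Along the interferon gamma-inducible score 3 rose and 9 fell (Uchl5, -0.34 ± 0.05, and Ubqln4, -0.32 ± 0.04, at the low end). Over all genes 13.9% rose and 19.4% fell along that score, and 31.9% of genes above the median level fell.

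The MHC class I presentation list, which takes up the peptides that proteasomes make, had 12 measured genes of 14 listed. Along the interferon gamma-inducible score 10 rose and 0 fell, with a median slope of 0.39. The largest slopes were those of the transporter Tap1 (0.62 ± 0.06), Nlrc5 (0.59 ± 0.13), the activator of class I genes, and the loading factor Tapbp (0.54 ± 0.04). Psmb9 at 0.50 lay close to these. Along the Myc target score 0 rose and 9 fell, with Tapbp at -0.47 ± 0.06, Tap1 at -0.39 ± 0.10 and H2-K1 at -0.32 ± 0.06. Probe sets of H2-K1 and its paralogue H2-D1 may share signal.

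The genes most like Psmb8 outside the members were ranked by Pearson r over the 39 tumours, among 16289 genes. Tap2 (r = 0.83) and Tap1 (0.81), its neighbours on chromosome 17, came first. Nxpe2 (0.80), the granzyme Gzmk (0.80), H2-Oa (0.79), Eomes (0.78), the channel Trpm2 (0.78) and Tapbp (0.78) followed. The mean levels of Nxpe2 and Eomes, 5.32 and 5.44, were under every array median. Without the 7 tumours Nxpe2, Tapbp and Tap2 were the first 3, with r of 0.81, 0.81 and 0.80, while Gzmk and H2-Oa were at ranks 53 and 55. Tap1 had its highest level of 12.21 in tumour 2, followed by 10.92 in tumour 1 and 10.62 in tumour 27, 3 of the tumours that were high for Psmb8. The genes most like the mean of the 31 core and regulator genes were the nuclear pore gene Nup37 (r = 0.94), Lyar (0.94), the mRNA export gene Alyref (0.94), the histone chaperone Nasp (0.94), Parpbp (0.93), Utp18 (0.93), Ctps (0.93) and Dazap1 (0.93). Without the 7 tumours these 8 had r between 0.77 and 0.83.

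Some members moved with the chromosome on which they lie. The shift of a chromosome was taken as the median deviation of its genes above a level of 8, members left out, from that of all such genes. This relation was added after the data were seen. Of the 48 members 18 rose and 0 fell with the shift of their own chromosome. Over all 18022 genes with a known chromosome 11.3% rose and 0.222% fell, and 20.5% rose among genes above the median level. In 23 of the 48 members (47.9%) the own chromosome gave the highest r of the 20 chromosomes, against 20.2% of all genes. That share was not computed for genes above the median level, where all members but Psma8 and Psmb11 lie, so both percentages differ in level too.

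The members of chromosomes 3, 5 and 13 showed this most. On chromosome 3, Psmd4 (0.20 ± 0.03 log2 per SD of the shift), Psma5 (0.17 ± 0.03) and Psmb4 (0.17 ± 0.03) were each among their 4 highest levels in tumours 12 and 15, where the chromosome stood at 0.25 and 0.39. On chromosome 5, Psmg3 (0.32 ± 0.06), Psmd9 (0.22 ± 0.04) and Psmc2 (0.17 ± 0.02, adjusted p = 3.74e-06) each had their highest level in tumour 21, at 10.96, 10.08 and 12.44, where the chromosome stood at 0.61. On chromosome 13, the chaperone Psmg4 (0.26 ± 0.05) and Psma2 (0.17 ± 0.03) were low in tumours 17, 24 and 3, at 9.18, 9.19 and 9.13 for Psmg4 and 12.20, 12.05 and 12.10 for Psma2, where the chromosome stood at -0.63, -0.56 and -0.54. Psmg4 was lowest in tumour 20, though, at 8.97 with a chromosome shift of 0.05. Tumour 21 had the highest level for 9 of the 48 members. Psme4 rose with chromosome 11 (0.33 ± 0.09, adjusted p = 0.012), which stood at 0.31 in tumour 21 but at 0.01 in tumours 13 and 29, where Psme4 was high too. None of the 4 immunoproteasome genes passed over the 39 tumours (Psmb8 with chromosome 17, 0.14 ± 0.06, adjusted p = 0.15), but Psmb8 did without the 7 tumours (0.18, adjusted p = 0.022), as did Psme1 with chromosome 14 under the composition covariates (0.10, adjusted p = 0.0079). Copy number was not measured, and its part in these slopes was not tested.

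**Figure D5:**
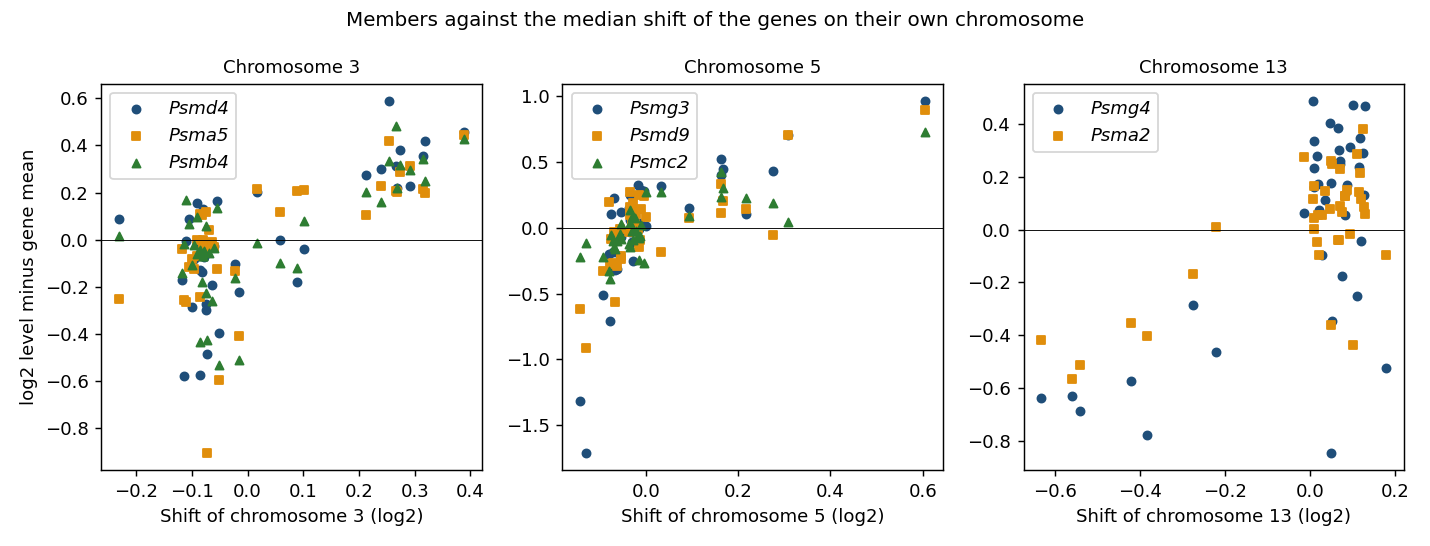
Log2 level minus the gene's mean (vertical axis) against the median shift of the genes on the same chromosome (horizontal axes, log2), 1 point per tumour, for members on chromosomes 3, 5 and 13. Psmg3, Psmd9 and Psmc2 are highest in the tumour with a chromosome 5 shift of 0.61, and Psmg4 and Psma2 are low in the 3 tumours with chromosome 13 shifts near -0.6.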

How the data were processed

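Values were log2 expression levels per probe set that the authors deposited, and the submitters' processing notes name RMA and affy (versions not given in the sources used here). RMA gives all arrays 1 distribution, which hides a change in total RNA and narrows differences between dim genes. Of 45101 probe sets, 34958 named 1 gene, and each of 18194 genes was represented by its probe set with the highest mean. A score is the mean of the log2 levels of its genes, each minus its mean. Every gene outside a score was fitted on the score divided by its SD with limma 3.58.1 (lmFit, eBayes with trend, R 4.3.3), 2-sided, with Benjamini-Hochberg adjustment over all genes and a threshold of 0.05. Mixture models (mclust 6.1.1) called a score separated at a BIC gain over 10. The fits were checked on simulated data. Precision is set by how many arrays there are. The members, lists and named genes (the largest and smallest slopes and SDs by a fixed rule, with others chosen after their values were seen, such as Psma7 and Psmd14) were chosen with earlier results of these data known. Alternatives left out tumours, averaged probe sets, kept bright genes, added composition or RNA quality covariates, or used ranks.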

Additional observations from a re-analysis of the deposited data

How the results depend on the processing

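Limits first: the gene counts rest on a single group of 39 arrays, many genes of whole tumours share composition, and dim members such as Psma8 and Psmb11 have little signal. No paired analysis was possible because all tumours form 1 group. The planned relations of Psme2 were not run, since its only probe set names a second gene. Of the settings tried for single named genes, 651 kept the reported outcome, called or not called. A call was lost in 145 and gained in 5, and a called slope turned its sign in 12. The 651 include slopes that were not called in the reported fit, and a change of sign in those was not counted. The cause was not tested. Counts are members passing, without the share over all genes at each setting beside them. Along the interferon gamma-inducible score 4 rose, and 0 with composition covariates, while 23 fell, against 7 without tumour 2 or without tumours 2, 6 and 8, 6 without the 7 tumours, 0 with composition covariates and 1 with the Myc target score as covariate. Along the type I interferon score 4 rose and 19 fell, against 0 and 0 without tumour 2, without tumours 2, 6 and 8, and with composition covariates, 1 and 0 without the 7 tumours, and 8 falling on ranks of the score. Along the Myc target score 34 rose, against 15 without the 7 tumours and 20 with composition covariates, and 5 fell, against 3 without tumour 2, 1 with composition covariates and 0 with the interferon gamma-inducible score as covariate. Along the G2/M score 34 rose, against 18 without the 7 tumours, and 3 fell, against 0 without tumour 2 or with composition covariates. Along the Nfe2l1 level 2 rose, against 0 without tumour 2, without tumours 2, 6 and 8, without the 7 tumours or with composition covariates, and 1 on ranks, while 32 fell, against 4 without tumours 2, 6 and 8, 0 without the 7 tumours and 2 with composition covariates. With composition covariates r for Psmb8 minus Psmb5 was 0.1037 and -0.1293 along both scores, for Psmb9 minus Psmb6 -0.1349 along the Myc target score, and for Psmb10 minus Psmb7 and Psme1 minus Psme3 0.3168 and 0.3414 along the interferon gamma-inducible score. Among the genes named with a slope, called slopes changed sign for Psmb8 along the type I score (-0.009) and the Myc target score (0.127) with composition covariates. They also did for Psmb8 (0.1647), Psmb9 (0.1496) and Tap1 (0.1805) along the Myc target score with the interferon gamma-inducible score as covariate, and for Psmb7 (0.0309), Psme3 (0.1115), Psmg2 (0.069), Psmc3ip (0.1589) and Psmb3 (0.0238) along the interferon gamma-inducible score with the Myc target score as covariate. Along the Nfe2l1 level without the 7 tumours Psmd10 (-0.0119) and Psmc3ip (0.0477) did. Over all called members, composition covariates turned 2 of 27 along the interferon gamma-inducible score, 2 of 23 along the type I score, 4 of 39 along the Myc target score, 2 of 37 along the G2/M score and 6 of 34 along the Nfe2l1 level, where leaving out the 7 tumours turned 8. The 18 members that rose with their own chromosome were 17 to 27 under the alternatives. Counts with the mean of all probe sets, bright genes only, RNA quality as covariate and eBayes without trend stayed within 1.5 times the reported ones.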

Other observations

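Psme4 was highest in tumours 13, 21 and 29, at 12.57, 12.29 and 12.19. Il7r, the receptor chain for interleukin 7 on precursor B cells, was highest in the same 3 tumours, at 11.88, 12.77 and 11.78, against a median of 7.85 over all 39. This was noticed after the values were seen and was not tested. Rag1, another precursor gene, did not follow them. Tumour 13 had a Rag1 level of 4.46 and the median was 4.63, both under every array median and so with little signal. Rag1 stood at 7.44 in tumour 21 and at 11.81 in tumour 29. The next highest Rag1 level, 11.55, belonged to tumour 31, where Psme4 was at 10.09.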
